A study of Drosophila melanogaster with 16 samples.

Results

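The comparison set the L1 and L2 neurons of the fruit fly lamina against the other lamina neuron types, L3, L4 and L5. Its members were the genes with an RPKM (reads adjusted for the length of the gene and the depth of the library) of at least 1 in at least 2 of the 12 lamina libraries, and these were 8969 of the 15682 genes in the deposited table. The mean of the L1 and L2 type means (2 libraries each) was set against the mean of the L3, L4 and L5 type means (4, 2 and 2 libraries). A gene is called shared below where the contrast itself, L1 alone and L2 alone each differed from the mean of L3 to L5 in the same direction at an adjusted p under 0.05, and where all 4 L1 and L2 libraries lay beyond all 8 others. By that rule 646 genes (7.2% of those tested) were shared.

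All libraries came from neurons of wild-type Drosophila melanogaster, labelled as optic lobe and isolated by flow cytometry from dissociated pupal brain. The sources used here do not give the marker or driver that singled out each type. In the age field the types ascend from L1 to L5, at 24, 35, 40, 45 and 53 h after puparium formation, whereas the protocol names 40 h for the dissection of all of them. The deposited column names of all lamina libraries also carry the number 40. If the ascending ages are right, every L1 and L2 library is younger than every L3 to L5 library, and effects of age and of type cannot be told apart in any value below. The 4 libraries of the inner photoreceptors R7 and R8, with 65 and 96 h in the age field, serve as a reference level only.

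L1 and L2 are the large monopolar cells of the lamina. They receive histamine from the outer photoreceptors and pass the signal to the medulla, where L1 feeds the circuits for brightening and L2 those for darkening. L3 also receives direct photoreceptor input, whereas L4 and L5 take much of theirs from other lamina neurons. In mid-pupal life these neurons arborise in separate medulla layers and begin to form synapses, a step in which immunoglobulin proteins of the cell surface take part.

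The libraries carried the factors that mark each type. The homeobox gene scro averaged 63.6 to 104 RPKM in the 5 lamina types and at most 0.774 RPKM in R7 and R8. The nuclear receptor svp reached 49.7 RPKM in L1, bab1 85.7 in L2, the zinc finger gene erm 204 in L3, the homeobox gene ap 21.9 in L4 and the POU-domain gene pdm3 374 in L5, and each was at 5.11 or less in the other lamina types. The factor sim stood at 15.7 to 18.2 RPKM in L1 to L4 and at 0.0331 in L5.

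Steps between low values put the depth at 79.9 to 149.7 M reads in the L1 and L2 libraries and at 47.0 to 100.1 M in the others, so low values are less precise on the L3 to L5 side. At these depths 3 reads on a gene of 2 kb amount to 0.0100 to 0.0319 RPKM, a limit that covers counting error alone. Mitochondrial genes held 4.98 to 9.86% of the reads in L1 and L2 and 3.96 to 14.6% in the others. Of 9 photoreceptor marker genes tested, 7 were lower in L1 and L2 and none higher (77.8% called, against 31.8% of all genes tested). Without the L3 libraries 1 of 7 tested was lower, and without the L4 or the L5 libraries 8 of 9. Their summed RPKM ran from 8.91 to 27.9 in L1 and L2 and from 17.01 to 183 in L3 to L5, against 3542 to 4195 in R7 and R8. L3 held 67.3 to 183, L4 29.6 to 38.5 and L5 17.01 to 26.1, so L5 lay within the range of L1. The rhodopsin gene ninaE of the outer photoreceptors averaged at most 0.208 RPKM in any lamina type, the glial factor repo at most 0.452 and the blood cell gene Hml at most 0.378. Summed glial markers ran from 9.51 to 12.1 RPKM in L1 and L2 and from 10.8 to 38.5 in L3 to L5. Summed blood cell markers stood at 205 and 167 RPKM in L1, 17.5 and 18.1 in L2 and 77.6 to 292 in L3 to L5, most of it from the peroxidase gene Pxn, which averaged 184 RPKM in L1 and 14.2 in L2. Summed medulla neuron markers did not overlap, at 4.62 to 5.01 RPKM against 6.49 to 18.3, and 1 of 4 tested, toy, was called and shared lower. Summed cone and pigment cell markers stood at 1061 and 858 RPKM in L1, 57.0 and 106 in L2 and 118 to 317 in L3 to L5, and in L1 came almost wholly from the eye colour gene w (955 RPKM). The part of these cells in the results was not tested. Nothing in the labels ties replicates to separate animals, so the p-values rest on a spread between libraries that may be technical. In sorted bulk samples fewer cells carrying a transcript and less of it per cell cannot be told apart.

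Of 8969 genes tested, 1458 (16.3%) were higher in L1 and L2 than in L3 to L5 and 1397 (15.6%) were lower, by limma at an adjusted p under 0.05. The libraries of both sides did not overlap for 578 higher (6.44%) and 451 lower genes (5.03%). Shared genes numbered 325 higher (3.62% of those tested) and 321 lower (3.58%). Quantile normalization gave 412 shared higher and 252 lower. The median log2 difference of all genes tested was -0.01, where a log2 difference here is always that of log2(RPKM + 1), L1 and L2 minus L3 to L5, which understates the change of low genes. Leaving out L1 replicate 1 left 145 shared higher and 174 shared lower genes, L1 replicate 2 131 and 192, L2 replicate 1 146 and 195, and L2 replicate 2 96 and 165. The calls of the contrast fell to 771 to 879 higher and 816 to 919 lower genes without L1 replicate 1, L1 replicate 2 or L2 replicate 2. A group of 64 higher and 119 lower genes was shared in the fit of all libraries and in each of the 12 fits that left out 1 library.

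Shared lower genes spanned the wider range. Beyond 4-fold lay 114 of the 321 lower and 24 of the 325 higher genes, and beyond 16-fold 26 and 4. Protein-coding genes made up 249 of the lower and 297 of the higher genes. The counts beyond 4-fold and 16-fold were not split by kind of gene. The median size of the log2 difference was 1.502 among the lower and 1.06 among the higher genes. No difference was called between L1 and L2 or among L3, L4 and L5 for 225 of the 325 higher and 191 of the 321 lower genes. With 2 libraries in most types, a missing call does not show equal levels. Of the shared lower genes L5 was the highest type for 133, L4 for 112 and L3 for 76.

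**Figure D1:**
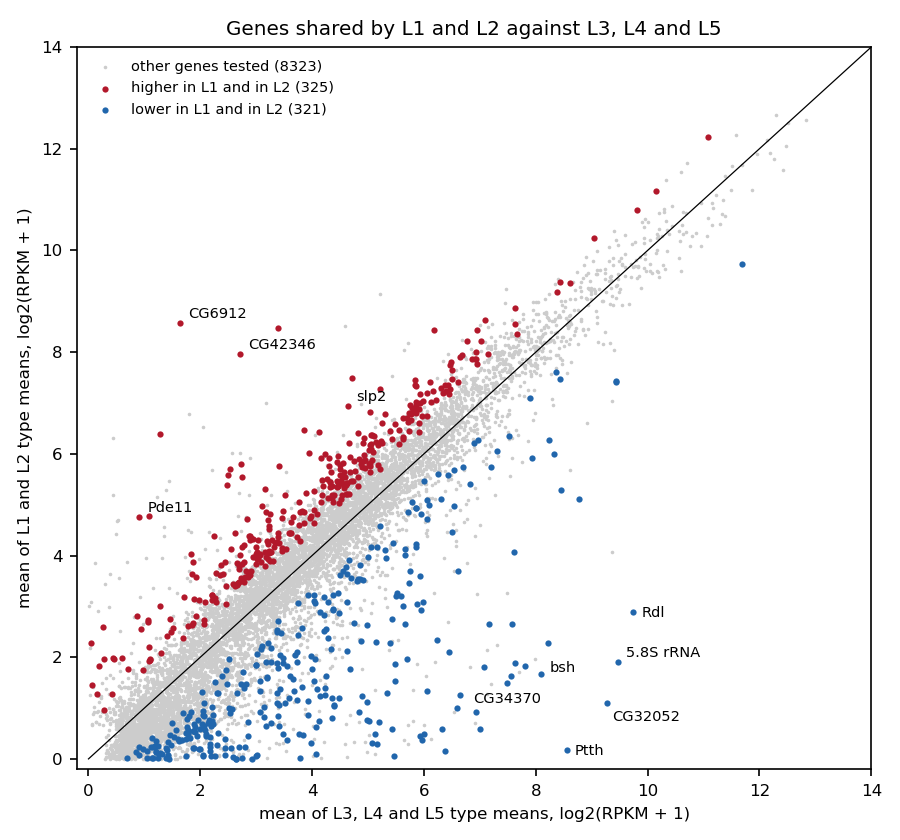
Each point is 1 of the genes tested, placed by the mean of the L3, L4 and L5 type means (horizontal) and of the L1 and L2 type means (vertical), both as log2(RPKM + 1), with equal levels on the line. Red marks the 325 shared higher and blue the 321 shared lower genes, and the blue points reach farther from the line than the red.

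The widest shared excess was that of CG6912 (FBgn0038290), a gene with no name in the current annotation. It measured 325 and 413 RPKM in the L1 libraries and 427 and 350 in the L2 libraries, against a lowest, median and highest of 0.848, 2.18 and 4.58 in the 8 libraries of L3 to L5. The sides were thus far apart, and no difference was called between L1 and L2 (adjusted p = 0.955). The log2 difference between the sides was 7.00 ± 0.20 (SE, adjusted p = 3.0e-09). R7 and R8 carried it at 158 and 315 RPKM, so among the 7 types it was low only in L3, L4 and L5. CG42346 (FBgn0259677) followed with 279 and 256 RPKM in L1 and 255 and 201 in L2, against 0.260, 7.54 and 16.7. Its log2 difference was 5.99 ± 0.13, and within the other side L3 held 12.8 to 16.7 RPKM while L5 held 0.260 and 0.342. In the current annotation 16.4% of its exonic bases overlap another gene. CG43462 (FBgn0263416), listed by RefSeq as a former tag of CG45263, came next with 374 and 455 RPKM in L1, 352 and 235 in L2 and at most 20.55 elsewhere in the lamina (log2 difference 5.47). R8 carried CG43462 at 277 and 246 RPKM, and R7 at 6.59 and 5.51.

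Pde11 (FBgn0085370), a phosphodiesterase that breaks down cyclic nucleotides, measured 20.2 and 22.1 RPKM in L1 and 30.3 and 32.0 in L2, against 0.173, 1.08 and 1.95 (lowest, median, highest) in L3 to L5. No L3 to L5 library came near, and the log2 difference was 3.89 ± 0.15 (adjusted p = 1.7e-08). Gyc-89Db (FBgn0038436, now Gyc89Db), a subunit of an oxygen-sensitive soluble guanylyl cyclase, stood at 53.7 and 61.6 RPKM in L1 and 23.9 in both L2 libraries, against 0.381, 2.36 and 14.4. Its log2 difference was 3.42 ± 0.37, but 92.1% of its exonic bases overlap another gene, so its reads are uncertain. The axon growth gene sick (FBgn0263873), which acts through the actin cytoskeleton, stood at 69.9 and 70.6 RPKM in L1, 37.9 and 25.7 in L2 and at most 8.18 elsewhere in the lamina (log2 difference 3.25).

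The cadherin gene Cad87A (FBgn0037963) held 30.8 and 32.0 RPKM in L1 and 22.5 and 20.53 in L2, against 0.388 to 2.48 (log2 difference 3.75). CG14855 (FBgn0038260) averaged 60.4 RPKM in L1 and 31.2 in L2, against 0 to 16.01. CG33993 (FBgn0053993, now Egfrap) was the most unequal of the 10, with 9.57 and 9.22 RPKM in L1 and 173 and 138 in L2, against 0.0198 to 5.15 in L3 to L5. It differed between L1 and L2 by a log2 value of -3.91 (adjusted p = 0.00148), while both stayed above every L3 to L5 library.

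**Figure D2:**
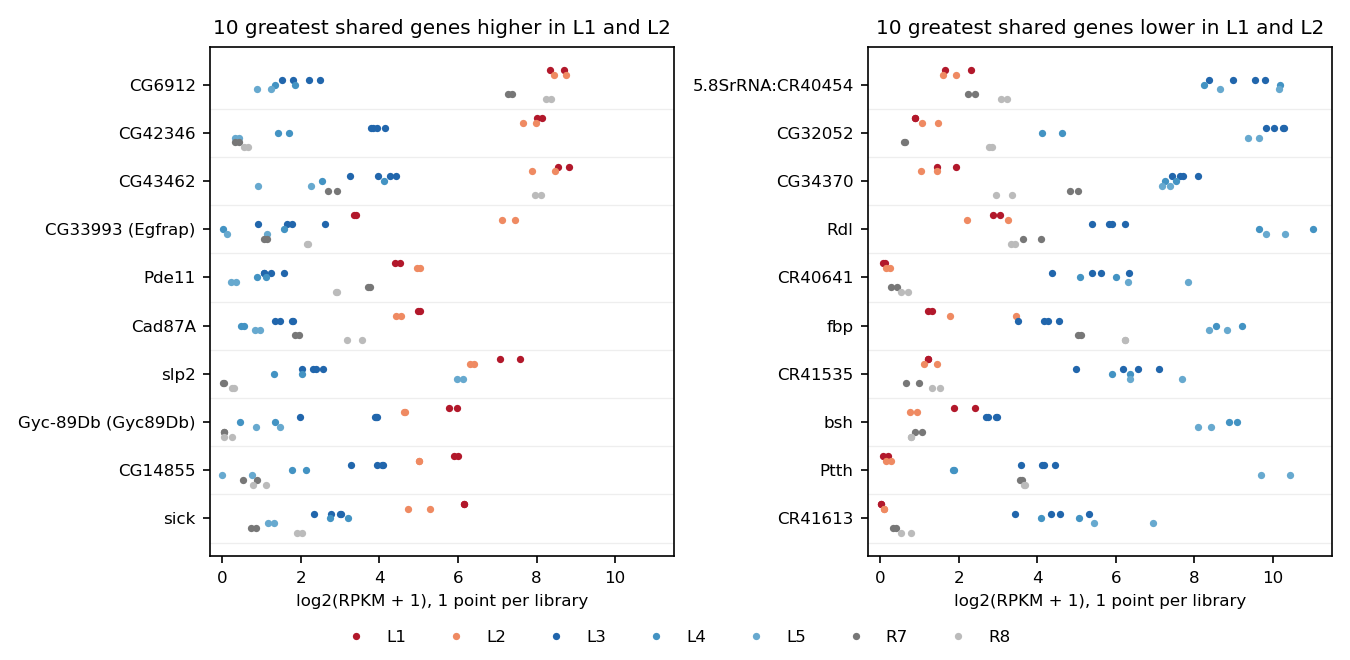
Each row is a gene and each point a library, on a scale of log2(RPKM + 1), for the 10 genes with the greatest shared log2 difference in each direction. L1 and L2 (red and orange) do not overlap L3, L4 and L5 (blues) in any row, though slp2, fbp and bsh come close. The R7 and R8 libraries (greys), which took no part in the choice, are also high for CG6912, and those of R8 for CG43462.

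Among genes lower in L1 and L2, the largest shared deficit of a protein-coding gene was CG32052 (FBgn0044328). It measured 0.841 and 0.839 RPKM in L1 and 1.79 and 1.10 in L2, against 16.5, 855 and 1243 in L3 to L5. The sides did not overlap, but L4 (24.0 and 16.5 RPKM) lay far below L3 and L5, and the log2 difference was -6.92 ± 0.16 (adjusted p = 7.5e-10). CG34370 (FBgn0085399) fell into 2 levels, with 2.80 and 1.74 RPKM in L1 and 1.72 and 1.04 in L2, against 143, 178 and 273 in the others. No difference was called among L3, L4 and L5 (adjusted p = 0.326), and the log2 difference between the sides was -5.997 ± 0.17. CG6220 (FBgn0033865) behaved in the same way, with 3.25 to 8.73 RPKM against 96.5 to 319 (log2 difference -4.87).

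Metabolic, lipid and hormone genes followed. The gluconeogenic enzyme gene fbp (FBgn0032820), a fructose-1,6-bisphosphatase, held 1.51 and 1.31 RPKM in L1 and 2.43 and 10.0 in L2, against 10.5, 175 and 587. The highest L2 library and the lowest L3 library almost met, and the log2 difference of -5.25 ± 0.31 came mostly from L4 and L5. The diacylglycerol lipase gene inaE (FBgn0261244), known for its part in the photoreceptor light response, stood at 0.463 to 0.767 RPKM in L1 and L2, against 18.5 to 52.8 (log2 difference -4.21 ± 0.18). Ptth (FBgn0013323), the hormone that drives ecdysone release by the prothoracic gland, was at 0.0613 to 0.213 RPKM in L1 and L2. It reached 831 and 1378 RPKM in L5, 10.9 to 20.9 in L3 and 2.66 and 2.65 in L4, so its log2 difference of -5.16 averages very unequal types.

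Of 23 tested factors known from lamina or optic lobe neurons, 10 were higher and 6 lower in L1 and L2 (69.6% called, against 31.8% of all genes tested). Shared were 1 higher and 3 lower (17.4%, against 7.2% of all genes tested), and the median log2 difference was -0.14 (0.08 under quantile normalization). The shared higher factor was the forkhead gene slp2 (FBgn0004567), with 134 and 192 RPKM in L1 and 77.6 and 83.8 in L2, against 1.499, 4.12 and 68.8. L5, at 62.2 and 68.8 RPKM, lay just below the lowest L2 library, and L3 and L4 held 1.499 to 4.88. The log2 difference was 3.49 ± 0.17 (adjusted p = 1.9e-07). Its neighbour slp1 crossed the line, since L5 (478 RPKM) exceeded both L1 (437) and L2 (322), against 18.4 in L3 and 19.0 in L4.

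The shared lower factors were the homeobox gene bsh (FBgn0000529), pdm3 (FBgn0261588) and the Pax6 gene toy (FBgn0019650). For bsh the libraries read 4.34 and 2.70 RPKM in L1 and 0.917 and 0.704 in L2, against 5.45, 138 and 546 (log2 difference -5.19 ± 0.15). L3, at 5.45 to 6.92 RPKM, lay barely above L1, and the call was lost when the libraries were pooled into 2 classes without type means (adjusted p = 0.0656). For pdm3 the 4 libraries read 0.416 to 0.556 RPKM, against 1.68 to 5.57 in L3 and L4 and 325 and 423 in L5. Its log2 difference was -3.81, and pooling lost this call too (adjusted p = 0.120). The factor toy differed by -0.91, from 3.04 to 3.37 RPKM against 4.26 to 10.5. It was most abundant in R7 (47.7 RPKM) and R8 (35.8), and the part of the photoreceptor markers in its difference was not tested.

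In the fit with type means, every tested gene of the sidestep family, whose immunoglobulin proteins bind the beat family, was called. All 8 side genes tested differed, 3 higher and 5 lower, with a median log2 difference of -2.39, against 31.8% of all genes tested. Shared among them were side-VI (CG34114, FBgn0083950), side-V (CG34371, FBgn0085400) and side-VIII (CG12484, FBgn0086604) on the lower side and side-VII (CG12950, FBgn0037736) on the higher. For side-VI, L1 read 0.410 and 0.358 RPKM and L2 0.427 and 0.263, against 0.994, 31.4 and 106. L3 stayed at 2.12 RPKM or less while L4 and L5 held 60.8 to 106, and the log2 difference was -4.33 ± 0.19. For side-V the 4 libraries read 0.210 to 0.378 RPKM, with 144 and 214 in L5 and at most 3.59 in L3 and L4 (log2 difference -3.30). For side-VIII they read 0.308 to 0.686 RPKM, with 19.0 to 28.4 in L3 and L4 and 1.65 and 4.38 in L5 (log2 difference -3.05). For side-VII the difference was a mild one, 39.6 to 46.3 RPKM against 16.4 to 37.4 (log2 difference 0.99).

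The other called side genes were uneven within a side. The gene side-II (CG42313) stood at 251 RPKM in L1, 78.6 in L5 and 0.512 in L2, with at most 3.84 in L3 and L4. Its log2 difference of 0.87 became 0.29 without the L3 libraries (adjusted p = 0.0849) and -0.0049 without the L4 libraries (adjusted p = 0.980), so its call and direction rest on those types. The gene side-IV (CG14372) stood at 0.618 RPKM in L1 and 181 in L2, although 67.4% of the exonic bases of side-IV overlap another gene. L3 led for side (266 RPKM, with 101 in L4) and for side-III (CG34113, 132 RPKM, with 15.3 in L4), and the call for side was lost without the L3 libraries. Pooling the libraries into 2 classes lost the calls of side-VI (adjusted p = 0.0750), side-V (0.153) and side-III (0.0519). It also lost those of side-IV (0.263), side (0.115) and side-II (0.635), and the 2-fold threshold lost that of side-VII.

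Of 11 beat genes tested, 2 were higher and 4 lower (54.5% called, against 31.8% of all genes tested). Their median log2 difference was -0.60, and of those called beat-IIb (FBgn0038494) was shared. It measured 4.20 and 3.37 RPKM in L1 and 0.997 and 1.52 in L2, against 7.63, 184 and 247. L3 and L4 held 154 to 247 RPKM and L5 only 7.63 and 9.16, for a log2 difference of -4.45 ± 0.15 (adjusted p = 1.4e-08). Its neighbour beat-IIa (FBgn0038498) was at 0.893 to 2.78 RPKM in L1 and L2 and at 142 to 375 in L3 and L4, but L5, at 2.76 and 2.73, overlapped L1. In flies the Beat-II proteins bind Side-IV, which in these libraries was at its highest in L2.

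Of 21 dpr genes tested, 4 were higher and 6 lower (median log2 difference -0.10, and 0.01 under quantile normalization), 47.6% called against 31.8% of all genes tested. Without the L3 libraries 7 of 20 were higher and 2 lower. The dpr proteins are short immunoglobulin proteins that bind the DIP proteins of partner neurons. The founding member dpr1 (dpr, FBgn0040726) was shared lower, with 3.79 and 3.14 RPKM in L1 and 1.96 and 1.79 in L2, against 8.43, 262 and 329. L5 again held the low end (9.83 and 8.43 RPKM), and the log2 difference was -4.72 ± 0.13 (adjusted p = 3.0e-09). The second shared gene, dpr8 (FBgn0052600), split L1 from L2. It measured 4.52 and 3.40 RPKM in L1, 79.1 and 65.7 in L2 and 183 to 648 in L3 to L5, a log2 difference of -4.07, and L1 fell below L2 by a log2 value of -3.89 (adjusted p = 3.7e-05). Of 3 DIP genes tested 1 was called lower (33.3%, near the 31.8% of all genes tested) and none was shared.

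Of 27 guidance genes tested 12 were higher and 8 lower (74.1% called), and of 43 adhesion genes 9 were higher and 19 lower (65.1%), against 31.8% of all genes tested. Shared were 3 guidance genes (11.1%) and 3 adhesion genes (6.98%), near the 7.2% of all genes tested. Dscam3 (FBgn0261046), a paralogue of the self-avoidance receptor Dscam1, measured 0.398 and 0.569 RPKM in L1 and 0.607 and 0.451 in L2, against 3.95, 49.5 and 212 (log2 difference -4.64 ± 0.15). L5 held the most (154 and 212 RPKM) and L4 the least of that side (5.599 and 3.95). The leucine-rich repeat gene kek1 (FBgn0015399), an inhibitor of the Egf receptor, stood at 5.06 to 8.80 RPKM against 9.99 to 123, and Toll-7 (FBgn0034476) at 0.949 to 2.96 against 3.95 to 18.1. The glypican dlp (FBgn0041604) stood at 0.216 to 0.724 RPKM against 1.13 to 5.70.

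A secreted semaphorin and a semaphorin receptor lay on opposite sides. Sema-2b (FBgn0264273), the secreted ligand, was shared lower at 0.263 to 0.623 RPKM against 0.894 to 8.97 (log2 difference -1.51 ± 0.14). Its receptor gene plexB (FBgn0025740) was shared higher, with 12.3 and 10.9 RPKM in L1, 7.87 and 7.13 in L2 and 3.06 to 5.72 in the others (log2 difference 0.93 ± 0.14, adjusted p = 7.1e-04). The pooled classes lost the call of Sema-2b (adjusted p = 0.0739). The gene comm (FBgn0010105), whose product keeps the receptor Robo off the growth cone, was called but not shared. It stood at 246 to 286 RPKM in L1 and L2, at 427 and 411 in L4 and at 3.04 to 15.4 in L3 and L5.

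Among receptors for fast transmitters, the GABA-gated chloride channel gene Rdl (FBgn0004244) showed the widest difference. It measured 7.28 and 6.28 RPKM in L1 and 8.50 and 3.66 in L2, against 41.2, 436 and 2064. L3 held 41.2 to 73.6 RPKM, and L4 (2064 and 797) and L5 (1263 and 907) far more. The log2 difference was -5.90 ± 0.28 (adjusted p = 1.4e-07). A related GABA-gated subunit gene, Lcch3 (FBgn0010240), went the other way, with 259 and 219 RPKM in L1, 159 and 162 in L2 and 55.3 to 121 in the others (log2 difference 1.17), although 31.3% of its exonic bases overlap another gene. The metabotropic receptor gene GABA-B-R1 (FBgn0260446) was lower, at 6.28 to 15.1 RPKM against a narrow 21.5 to 28.2 (log2 difference -1.22 ± 0.12). In all, 3 of the 7 GABA receptor genes tested were higher and 2 lower (71.4% called, against 31.8% of all genes tested).

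Glutamate receptor genes were divided as well, with 3 of 8 higher and 4 lower (87.5% called, against 31.8% of all genes tested). The AMPA-type subunit gene GluRIA (FBgn0004619) stood at 0.475 to 0.536 RPKM in L1 and L2, 0.976 to 2.06 in L3, 29.6 and 41.2 in L4 and 96.3 and 82.4 in L5. Its log2 difference was -3.73, with an adjusted p of 0.0919 once the libraries were pooled into 2 classes. The kainate-type gene KaiR1D (CG3822, FBgn0038837), which acts at the presynaptic terminal at the fly neuromuscular junction, was abundant in all lamina types and higher in L1 (553 and 470 RPKM) and L2 (477 and 366) than in the others (149 to 327). Its log2 difference was 1.27 ± 0.15. GluRIIE (FBgn0051201), a subunit of the muscle glutamate receptor, differed by 1.16, from 3.98 to 11.3 RPKM against 1.87 to 3.90.

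For the histamine channel HisCl1 (FBgn0037950) and the kainate-type receptor Ekar (CG9935, FBgn0039916), photoreceptor levels exceeded all lamina levels. HisCl1 measured 1.08 and 1.63 RPKM in L1 and 1.49 and 2.33 in L2, against 4.12, 5.49 and 10.9, while R7 and R8 averaged 166 and 140. Ekar measured 2.28 to 4.12 RPKM against 6.68 to 22.6, with 379 and 313 in R7 and R8. Both were highest in L3 among lamina types, as the photoreceptor markers were. Without the L3 libraries the log2 differences of -1.35 and -1.52 became -1.10 and -1.18 and both calls held. The part of the photoreceptor markers in them was not tested.

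**Figure D3:**
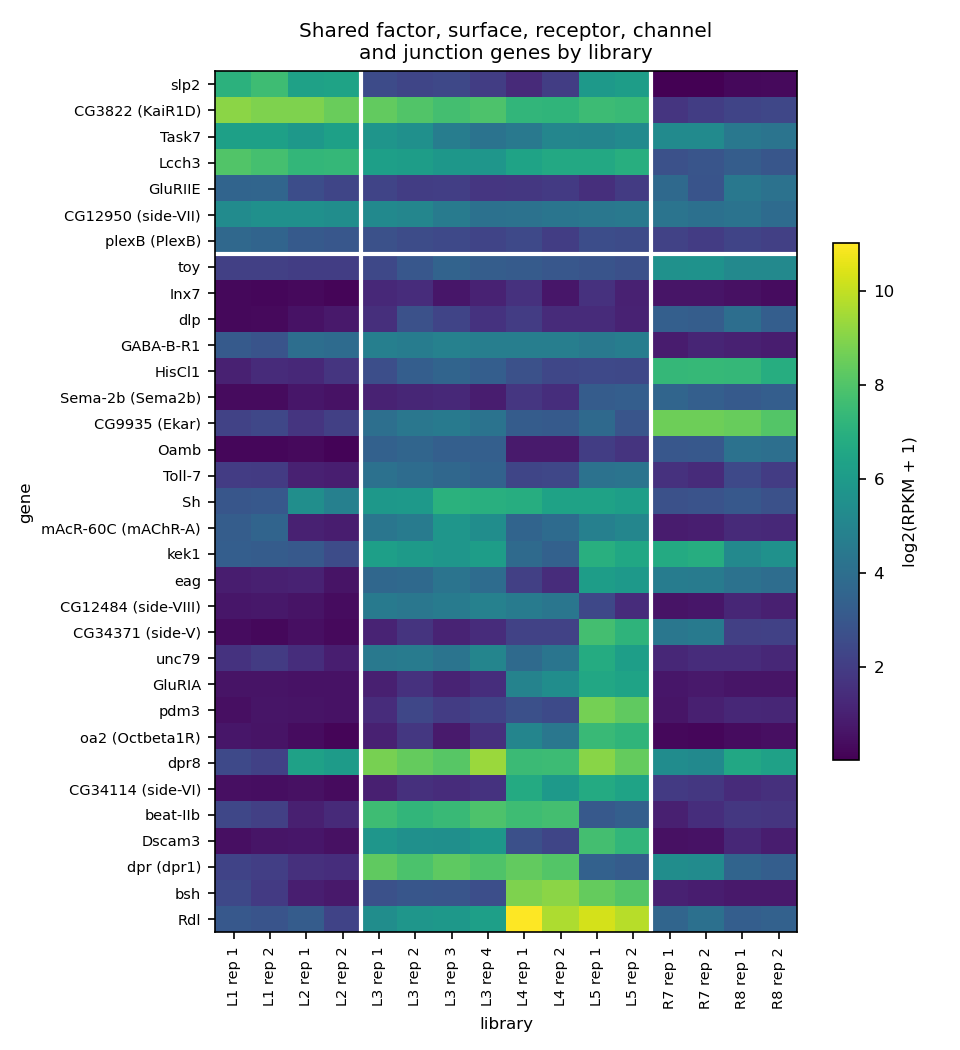
Colour gives log2(RPKM + 1) for each shared factor, surface, receptor, channel and junction gene (rows) in each library (columns), with white lines between L1 and L2, L3 to L5, and R7 and R8, and between genes higher (above) and lower (below) in L1 and L2. Dark cells in the left block mark genes such as Dscam3 and Oamb that were at 0.607 RPKM or less in all 4 L1 and L2 libraries.

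Of 10 nicotinic receptor subunit genes 1 was higher and 4 lower (50% called, against 31.8% of all genes tested), and none was shared. Under quantile normalization none was higher and 2 were lower. Of 13 amine receptor genes 2 were higher and 5 lower (53.8% called), and both shared ones respond to octopamine. Oamb (FBgn0024944) stood at 0.0886 to 0.236 RPKM in L1 and L2, against 0.764, 6.14 and 11.3, with L3 the highest (9.16 to 11.3) and a log2 difference of -1.83 ± 0.14. Octbeta1R (oa2, FBgn0038980) stood at 0.138 to 0.624 RPKM, against 148 and 175 in L5, 20.0 and 32.1 in L4 and 0.776 to 2.54 in L3 (log2 difference -3.99). The muscarinic receptor gene mAChR-A (mAcR-60C, FBgn0000037) was shared lower with unequal L1 (8.78 and 10.8 RPKM) and L2 (1.06 and 0.866), against 11.02 to 54.8. The highest L1 and the lowest L4 library were almost level. Of 16 peptide receptor genes 3 were higher and 7 lower (62.5% called). Of these Dh44-R2 was shared higher (25.2 to 30.8 RPKM against 5.48 to 10.0) and SIFR, Takr99D and SPR shared lower.

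Of 18 potassium channel genes tested, 7 were lower and 4 higher, against 15.6% lower and 16.3% higher of all genes tested. The A-type channel gene Sh (FBgn0003380) measured 6.89 and 7.28 RPKM in L1 and 42.9 and 27.4 in L2, against 58.9, 80.6 and 132. L1 lay below L2 (adjusted p = 0.00869) and both below the rest, and the log2 difference was -2.37 ± 0.25. The channel gene eag (FBgn0000535) stood at 0.548 to 1.10 RPKM against 1.67 to 70.2, with L5 the highest (log2 difference -3.01). The leak channel gene Task7 (FBgn0037690) was shared higher, at 58.5 to 77.3 RPKM against 17.7 to 53.6 (log2 difference 1.19). Of 16 sodium, calcium and cation channel genes 2 were higher and 7 lower (56.25% called, against 31.8% of all genes tested). The shared one was unc79 (FBgn0038693), a partner of the sodium leak channel, at 0.935 to 2.82 RPKM against 13.1 to 111. Of 6 innexin genes, which build gap junctions, 2 were higher and 4 lower (100% called, but 1 and 3 under quantile normalization). The one shared, Inx7 (FBgn0027106), stood at 0.127 to 0.242 RPKM against 0.605 to 2.04.

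Of 11 transmitter genes tested, 2 were higher, 5 lower and none shared, where 7.2% of all genes tested were shared. L1 and L2 differed for 3 of the 11. The vesicular glutamate transporter VGlut stood at 214 and 220 RPKM in L1 and at 0.672 and 0.941 in L2, against 0.227, 2.55 and 11.8. The acetylcholine enzyme gene Cha (now ChAT) stood at 0.657 and 0.970 RPKM in L1 but at 14.7 and 11.1 in L2, close to the lowest of the other side (14.1). The vesicular acetylcholine transporter VAChT followed Cha, with 0.732 and 0.544 RPKM in L1, 38.1 and 33.0 in L2 and 24.6 to 47.1 in the others. Neuropeptide and hormone genes, with 2 of 19 higher and 6 lower (42.1% called, against 31.8% of all genes tested), had no shared member but Ptth. The calls of VGlut and VAChT, with log2 differences of 2.84 and -2.13, therefore came from L1. That of Cha (-2.29) came mostly from L1, although 1 L2 library (11.1 RPKM) also lay below the lowest of the other side.

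Of 18 synaptic release genes 4 were higher and 4 lower (44.4% called, against 31.8% of all genes tested), and those shared, both higher, were Snap25, a membrane fusion protein of the presynaptic terminal (34.4 to 59.4 RPKM against 15.3 to 29.6), and Csp, a chaperone of synaptic vesicles (52.1 to 96.5 against 28.0 to 41.5). Of 16 ecdysone response genes 3 were lower and none higher, and none was shared. Of 16 Notch genes 3 were lower and none higher, so that 18.75% of the ecdysone and of the Notch list was called, below the share of all genes tested. Of 14 Wnt genes 1 was higher and 3 lower (28.6% called, near the share of all genes tested). The receptor gene fz2 was shared lower (7.19 to 15.3 RPKM against 18.7 to 45.2).

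A set of genes for the making of glycoproteins in the endoplasmic reticulum was higher in L1 and L2. These lists, unlike those above, were put together after the shared genes had been read, so their counts describe that choice. Among all genes tested 16.3% were higher and 3.62% shared higher. All 6 subunit genes tested of the oligosaccharyltransferase, which attaches sugar chains to new proteins, were higher, with a median log2 difference of 1.26, and 5 were shared. OstDelta (FBgn0034277) measured 389 and 418 RPKM in L1 and 346 and 421 in L2, against 71.3, 152 and 214 (log2 difference 1.63 ± 0.14, adjusted p = 1.1e-05). Ostgamma (FBgn0032015) measured 372 and 383 RPKM in L1 and 268 and 356 in L2, against 68.3, 117 and 262, so that the lowest L2 library and the highest L3 library nearly met. The sixth, Dad1 (l(2)k12914), differed by 0.77 and lost its call in 8 of the 12 fits that left out 1 library, among them each fit without an L1 or L2 library.

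Of 12 genes for folding and retention in the same organelle 8 were higher and none lower, 7 of them shared. The shares of all genes tested were 16.3% higher and 3.62% shared higher. The chaperone gene Gp93 (FBgn0039562) stood at 159 to 175 RPKM against 42.5 to 106, and the chaperone gene Hsc70-3 (FBgn0001218) at 1586 to 2174 against 585 to 1401. The retention receptor gene KdelR (FBgn0022268) stood at 108 to 201 RPKM against 44.1 to 95.7. Of 10 Alg genes, which build the sugar chain, 5 were higher and none lower. L4 had the lowest mean of the 5 lamina types for all 6 transferase subunits. R7 and R8 averaged 289 and 266 RPKM for OstDelta and 376 and 417 for Ostgamma.

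**Figure D4:**
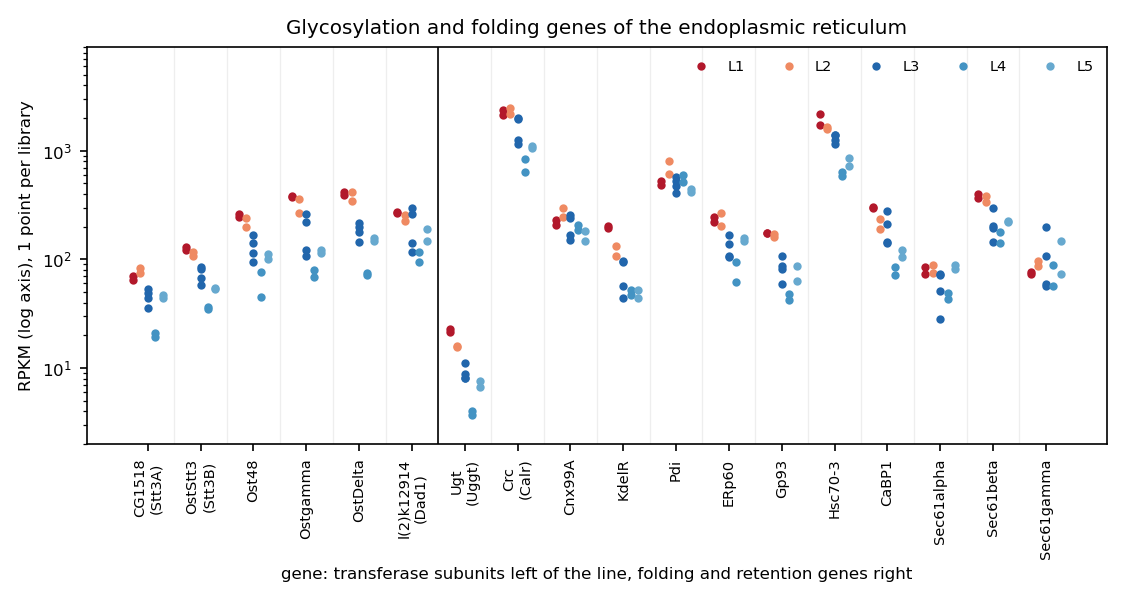
RPKM on a log axis, with 1 point per lamina library, for 6 transferase subunit genes (left of the line) and 12 folding and retention genes (right). L1 and L2 (red and orange) lie above all blue points for 12 of these genes, among them OstDelta and Gp93, and overlap them for others such as Pdi.

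Genes of the citric acid cycle and the nucleolus, chosen in the same way, were also higher. Among all genes tested 16.3% were higher. Of 14 citric acid cycle genes 8 were higher and none lower, although 2 were called lower under quantile normalization. The citrate synthase gene kdn (FBgn0261955) measured 136 and 107 RPKM in L1 and 99.7 and 96.3 in L2, against 18.3, 37.7 and 77.3 (log2 difference 1.60 ± 0.33). Idh3b (CG6439, FBgn0038922), a subunit of mitochondrial isocitrate dehydrogenase, measured 162 and 120 RPKM in L1 and 88.5 and 75.8 in L2, against 21.2 to 44.9 (log2 difference 1.79). Of 8 nucleolar genes 6 were higher and none lower. The box C/D protein gene nop5 (FBgn0026196), which guides the modification of ribosomal RNA, led with 30.3 and 35.4 RPKM in L1, 71.3 and 76.4 in L2 and 3.12 to 15.4 in the others (log2 difference 2.38 ± 0.22).

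Of 13 heat shock and stress genes 6 were lower, 1 higher (2 under quantile normalization) and 6 not called, and 15.6% of all genes tested were lower. Their summed RPKM overlapped, at 7882 to 9324 in L1 and L2 and 6346 to 14628 in L3 to L5. Hsp70Aa and Hsp70Ab, near-identical copies that share reads, each stood at 124 to 214 RPKM in L1 and L2 and at 292 to 965 in the others (log2 differences of -1.92 and -1.91). Hsp68 stood at 34.7 to 80.1 RPKM against 112 to 341, and the co-chaperone gene DnaJ-1 at 160 to 195 against 243 to 478. Col4a1 (Cg25C), a collagen of blood and fat cells kept as a marker of blood cells, was shared lower at 0.485 to 2.48 RPKM against 8.62 to 20.1. The part of heat shock or of blood cells in the shared genes was not tested.

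The greatest difference of all was in a ribosomal RNA entry. 5.8S rRNA (5.8SrRNA:CR40454, FBgn0250731) measured 2.13 and 4.02 RPKM in L1 and 2.05 and 2.79 in L2, against 300, 624 and 1151 in L3 to L5. R7 and R8, at 3.72 to 8.42 RPKM, were close to L1 and L2, and the log2 difference was -7.38 ± 0.42 (adjusted p = 3.8e-07). All of its exonic bases overlap other entries. Other non-coding kinds differed in part, where of all genes tested 16.3% were higher and 15.6% lower. Of 20 snRNA genes tested 10 were lower and none higher (1 under quantile normalization), and their summed RPKM ran from 31.6 to 75.6 in L1 and L2, from 93.5 to 257 in L3 to L5 and from 41.5 to 56.0 in R7 and R8. Both entries of 7SL RNA, the RNA of the signal recognition particle, were shared lower, with sums of 7.21 to 27.0 RPKM against 40.0 to 160, but R7 and R8 held 213 to 367. Of 46 tRNA genes 17 were lower and 2 higher, but of their summed RPKM in L5 (106 and 63.0) the lower value lay within the range of L1 and L2 (59.4 to 90.2). Of 55 snoRNA genes 7 were higher, 3 lower and none shared, with a median log2 difference of -0.01.

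Entries with CR40 or CR41 symbols that have no symbol in the current annotation were also mostly lower. Of 38 tested 30 were lower and 4 higher, against 15.6% and 16.3% of all genes tested. Among them 23 were shared lower and 1 shared higher, against 3.58% and 3.62%. The summed RPKM of this kind overlapped, at 802 to 1286 in L1 and L2 and 921 to 2049 in L3 to L5. R7 and R8 held the most, 1780 to 2950. CR40641 (FBgn0085760) stood at 0.0597 to 0.187 RPKM against 19.7 to 226, CR41535 (FBgn0085795) at 1.19 to 1.74 against 30.8 to 203, and CR41613 (FBgn0085822) at 0.0116 to 0.0756 against 9.81 to 122. In R7 and R8 these entries stood, in the same order, at 0.210 to 0.632, 0.587 to 1.89 and 0.250 to 0.720 RPKM. CR41597 (FBgn0085810) went the other way, at 28.0 to 32.3 RPKM against 4.04 to 11.2, with 37.8 to 46.1 in R7 and R8. Protein-coding genes alone gave 1337 higher and 1222 lower calls, with 297 and 249 shared. The part of these RNAs in the values of other genes was not tested.

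**Figure D5:**
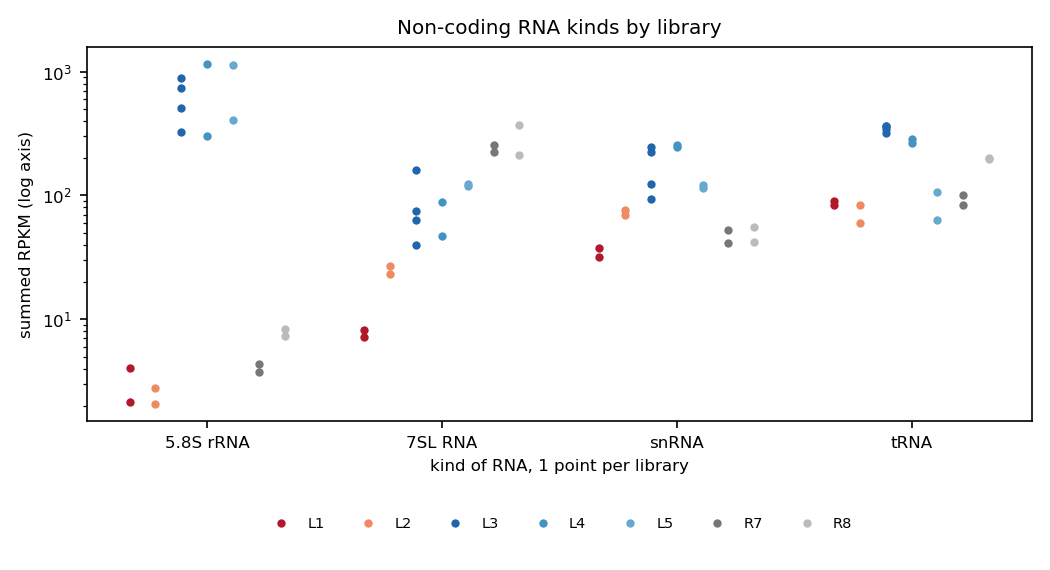
Summed RPKM on a log axis for kinds of non-coding RNA, 5.8S rRNA and 7SL RNA among them, with 1 point per library. The 5.8S rRNA of L1, L2, R7 and R8 lies at 2.05 to 8.42 RPKM and that of L3 to L5 at 300 to 1151, whereas 7SL RNA is lowest in L1 and highest in R7 and R8.

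L1 and L2 were not interchangeable in the contrast. Between them 576 genes differed (6.42% of those tested), and 1750 (19.5%) differed among L3, L4 and L5. Against the mean of L3 to L5, 102 genes were called in opposite directions, 55 higher in L1 and lower in L2 and 47 the reverse. Among shared genes 19 of the 325 higher and 27 of the 321 lower differed between L1 and L2. In L1 stood the higher level for 11 of the higher and 17 of the lower genes, and in L2 for 8 and 10.

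Several genes with wide called differences were not shared, since 1 type of the other side overlapped. CG30419 (FBgn0050419) stood at 136 to 165 RPKM in L1 and L2, but at 171 to 271 in L3, and at 0.564 to 6.96 in L4 and L5. The organic anion transporter gene Oatp26F (FBgn0051634) stood at 439 and 548 RPKM in L1, 69.1 and 98.3 in L2, 33.4 to 105 in L3 and L4, and 0.141 and 0.243 in L5. The insulin-like peptide gene Ilp2 (FBgn0036046) stood at 0.0299 to 0.532 RPKM in L1 and L2, 0.528 and 0.921 in L4, and 45.7 to 98.2 in L3 and L5. CG18598 (FBgn0038589), all of whose exonic bases overlap another gene, stood at 11.2 to 20.53 RPKM in L1 and L2, 14.5 to 53.7 in L3, and 337 to 1659 in L4 and L5.

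Photoreceptor levels of the shared genes were set beside those of all genes tested. The mean of R7 and R8 exceeded all 5 lamina types for 106 of the 325 higher (32.6%) and 49 of the 321 lower genes (15.3%), against 28.6% of all genes tested. It lay below all 5 for 46 (14.2%) and 80 (24.9%), against 28.3%. The difference between the directions was not tested. For 5 of the lower genes and none of the higher the R7 and R8 mean was more than 10 times the highest lamina mean. Of all 8969 genes tested, 90 passed that mark.

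The shared genes were also counted by length. The genes with an annotated length were cut into 5 classes of like size. In the shortest class 13 were shared higher and 50 lower, in the middle class 103 and 43, and in the longest class 55 and 91. The median log2 difference of all tested genes in those classes was -0.08, 0.08 and -0.12. The part of length in the shared genes was not tested.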

How the data were processed

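RNA sequencing libraries of sorted neurons were used, 12 of lamina types and 4 of R7 and R8. The authors deposited 1 table of RPKM values. TopHat and the build BDGP5 are named in the submitters' processing notes. Not given in the sources used here are the counting tool, its annotation and strand use, and all versions. Low values came out whole, within 0.05 of a read, for 69.4 to 74.2% of cases, so no count test was run. Of the gene IDs 15002 matched current symbols, and exon overlaps are those of the later build BDGP6, so no coordinates are given.

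Values entered as log2(RPKM + 1) into limma 3.58.1 (R 4.3.3, 12 lamina libraries, a mean per type, a variance trend, 7 residual degrees of freedom), with Benjamini-Hochberg adjustment. The fit was tested on simulated data. Members, lists and rules were chosen with earlier results of these data known.

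Named were the 10 greatest shared differences each way at 10 RPKM or more on the higher side, the 5 greatest with both sides level within a log2 value of 1, the 3 greatest called but not shared, shared members of the factor, surface, transmitter, receptor, channel and junction lists, and up to 4 of any other list. The lists of oligosaccharyltransferase, Alg, folding, citric acid cycle and nucleolar genes, and the kinds of RNA, were chosen after values were seen. Genes named to show a family or a marker fall outside the rule.

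Alternatives were quantile and median-ratio scaling, no filter, a filter of 5 RPKM, a pseudocount of 0.1, a 2-fold threshold, all 16 libraries, pooled classes, a replicate block, and leaving out a type or a library. Leaving out pairs of L3 libraries was added after seeing the data.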

Additional observations from a re-analysis of the deposited data

Results flagged for a closer look

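Of the 61 genes named by the rule, 4 had an L3 library far from the other L3 libraries. By chance about 1 in 20 groups of samples is flagged this way, and each of these rests on L3 replicate 3. In that library CG14855 stood at 8.715 RPKM, against 14.49 to 16.01 in the other L3 libraries. Gyc-89Db stood at 2.952 RPKM there, against 13.88 to 14.43. Oatp26F stood at 33.42 RPKM, against 72.48 to 77.68. RhoGEF3, which the rule also named and whose comparison is not reported here, stood high in it at 16.56 RPKM, against 11.21 to 11.60. The calls of all 4 held without L3 replicate 3.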

How the results depend on the processing

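The 2-fold threshold left 102 genes higher and 200 lower, of them 19 and 84 shared. Pooling the libraries into 2 classes gave 648 higher and 531 lower, and sharing is not defined there. Without the L3 libraries 683 and 592 genes were shared, and without L3 replicates 1 and 2 (added after seeing the data) 600 were shared higher. Leaving out 1 library gave 771 to 1674 higher and 816 to 1576 lower, with 96 to 385 and 165 to 389 shared. The lowest counts came without an L1 or L2 library. Without L1 replicate 1, L1 replicate 2 and L2 replicate 2 the higher genes numbered 879, 771 and 807 and the lower 816, 914 and 919.

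The correlations of same-numbered deviations ran from -0.25 to 0.30 and exceeded 0.1 in 10 of 20 pairs. With 2 libraries in a type the deviations mirror each other, so values among L1, L2, L4 and L5 repeat under both numbers. Those values were all positive, from 0.0094 (L1 and L5) to 0.30 (L4 and L5), and those with L3 had both signs. Whether replicate numbers pair the libraries cannot be decided from such repeated values, and the main fit did not pair them. With the replicate block 1861 genes were higher and 1896 lower, and 438 and 368 shared. The block and the other scalings, filters and pseudocounts stayed within 1.5 times of the reported 1458, 1397, 325 and 321.

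Of the 61 genes named by the rule 38 kept the call of the contrast in every alternative, none lost it without a single library and none changed sign. Beyond 2-fold 13 were not called and in the pooled classes 11. Whether they stayed shared was not counted for these 61. Of all shared genes, 64 of 325 higher and 119 of 321 lower were shared in each of the 12 fits that left out 1 library. The log2 difference of CG42313 reversed to -0.0049 without the L4 libraries. Some genes named to show a family lost their call without a type: erm, side and CG42313 without L3 (log2 differences of -0.33, -0.81 and 0.29), and l(2)k12914 without L4 (0.51, adjusted p = 0.182). Depth limits values near 0.0319 RPKM and below.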
